A study of Homo sapiens with 6 samples.

Results

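Transcripts of nucleoporins, importins, exportins and the GTPase Ran were measured by bulk poly(A) RNA-seq in MDA-MB-231 cells, a widely used human cell line from a triple-negative breast cancer. The 52 genes were chosen by name: protein-coding genes whose symbols begin with XPO, or with NUP, IPO, KPNA, KPNB or TNPO and a number, together with GLE1, RAN, RANBP2, TPR and POM121. They stand among 29538 genes in the count table. The siBYSL group was 3 cultures transfected with 160 pmol per well of a single siRNA duplex against BYSL, which encodes bystin, a factor of small (40S) ribosomal subunit maturation. The siNC group was 3 cultures given the same amount of a negative-control siRNA. Both groups received Lipofectamine RNAiMAX, had their medium changed at 6 h and were harvested at 48 h. The labels describe the 3 cultures of a group as independent biological replicates of the 1 line. Because a single duplex was used, an effect of BYSL loss and an effect of that duplex on other transcripts cannot be told apart from the group comparison.

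All traffic between nucleus and cytoplasm passes through nuclear pore complexes. Their rings are built of scaffold nucleoporins, and nucleoporins rich in phenylalanine-glycine repeats fill the channel. Importins carry cargo inward and exportins carry it outward, most of them members of the karyopherin beta family that bind Ran, while importin alpha proteins link cargo with classical nuclear localization signals to importin beta. Ran in its GTP-bound form, which is kept high in the nucleus, releases import cargo and stabilizes export complexes. Pre-ribosomal subunits leave the nucleus by this route, with XPO1 as an exportin of both subunits.

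The siRNA strands are shown because their seeds, bases 2 to 8 (in capitals, 5′ to 3′, as RNA with a TT overhang), can pair with 3′ UTRs of transcripts other than BYSL. The duplex matches BYSL at chr6:41931467-41931485 on the plus strand of GRCh38.
Guide (antisense) strand: uAUUCAGCaacgucaucuctt
Passenger (sense) strand: gAGAUGACguugcugaauatt
The heptamer GCTGAAT pairs with the guide seed. In XPOT, KPNA4, RAN and XPO4 it is followed by an A, which would also face the first base of the guide; these sites are shown with the heptamer in capitals and 15 bases before it.
XPOT, chr12:64448472-64448478, plus strand: actttttaaaaaattGCTGAATa
KPNA4, chr3:160500804-160500810, minus strand: tggtgcatatgtactGCTGAATa
RAN, chr12:130877322-130877328, plus strand: tgaaataagggtgaaGCTGAATa
XPO4, chr13:20778960-20778966, minus strand: ttgagccagttatagGCTGAATa
The central-channel gene NUP62 and the importin gene KPNB1 carry the heptamer without that A and are shown beside them.
NUP62, chr19:49906885-49906891, minus strand: ttgtctttatactttGCTGAATt
KPNB1, chr17:47682493-47682499, plus strand: ggagtgtgcacggatGCTGAATg

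The libraries held 27754883 to 32088817 counts in siBYSL and 28606048 to 30476744 in siNC. BYSL stood at 15.7 to 17.4 CPM (reads of a gene per unit of library size, with library sizes scaled by TMM factors) in siBYSL and 94.5 to 104.1 CPM in siNC, so every library followed its label. All 8 markers fixed for MDA-MB-231, VIM and CD44 among them, stood at 10 CPM or more in siNC. Their sum was 5240 to 5390 CPM in siBYSL and 5790 to 5900 CPM in siNC. AXL, LGALS1, EGFR and VIM fell (edgeR adjusted p under 0.05), at -0.51, -0.50, -0.23 and -0.21 on the log2 scale. FN1 and CD44 rose, at 0.54 and 0.19, and ZEB1 and KRT18 did not pass. Of 7 genes taken as absent or low in the line, 4, among them ESR1 and CLDN3, were under 1 CPM in siNC. EPCAM (20.9 CPM in siBYSL and 14.4 CPM in siNC), GATA3 (14.1 and 13.3 CPM) and CDH1 (9.18 and 4.48 CPM, in the same order) were not. CDH1, CLDN3 and EPCAM rose, at 1.04, 0.81 and 0.54 on the log2 scale (edgeR adjusted p = 6.6e-05, 0.019 and 1.6e-04), and GATA3 did not pass. The sum over these 7 genes was 44.9 to 47.2 CPM in siBYSL and 31.6 to 35.0 CPM in siNC. The summed level of 5 leukocyte markers, 4 of which are in the table, was 0.451 to 0.868 CPM in siBYSL and 0.428 to 0.573 CPM in siNC. That of 5 endothelial markers was 11.0 to 12.2 CPM in siBYSL and 9.55 to 10.6 CPM in siNC, and that of 5 fibroblast markers 14.5 to 16.1 and 12.0 to 13.4 CPM, in the same order. Of the fibroblast markers ACTA2 rose by 0.74 on the log2 scale (edgeR adjusted p = 0.0061), and COL1A1 and LUM did not pass. The part of these marker differences in the results was not tested. In bulk RNA, fewer cells of a state and less RNA per cell cannot be told apart.

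Library siBYSL 3 stood apart for these genes. Among the 51 members tested it was the lowest of the siBYSL libraries for 42 (82.4%, against 43.7% of all 16412 genes tested). The median of the members on the log2 scale against the siNC mean was -0.02 in siBYSL 1, -0.08 in siBYSL 2 and -0.20 in siBYSL 3. Transcript length moved with this: for 3360 tested protein-coding genes with a longest transcript of at least 5376 bases, the median of the members, the same value was 0.11, 0.05 and -0.05 in the same libraries. The part of transcript length in the members' values was not tested.

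Of the 51 members tested, those called mostly fell, by modest amounts, and GLE1 was the well-expressed one called as a rise. Of 52 members 51 passed the filter on low counts, all but NUP210L, which had 0 to 2 counts per library. At an adjusted p under 0.05 (edgeR quasi-likelihood test, Benjamini-Hochberg over all genes tested), 14 of the 51 fell (27.5%), against 18.4% of all genes tested, and 2 rose (3.92%), against 18.5%. The rises were GLE1 and KPNA7, and KPNA7 passed the filter only through its siBYSL libraries. The median log2 fold change of the members was -0.10, that of all genes 0.01. Without siBYSL 3 the members' median was -0.05 (all genes 0.01), and with library totals it was -0.02 (all genes 0.09). In 24 members (47.1%) every siBYSL library lay below every siNC library, against 24.9% of all genes, and in 5 (9.80%) every siBYSL library lay above, against 24.7%.

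How many members were called depended on the scaling and on single libraries. With library totals in place of TMM factors, which moved the median of all genes to 0.09 on the log2 scale, 8 fell (15.7%, against 12.1% of all genes) and 5 rose (9.80%, against 25.0%). Without siBYSL 3, 17 fell (33.3%, against 24.3% of all genes) and 9 rose (17.6%, against 23.5%), with all 16 calls kept. Without siNC 3, 8 fell (15.7%, against 12.5% of all genes) and 2 rose (3.92%, against 12.6%). The falls of NUP42, NUP43, NUP50, NUP85, NUP153 and XPO5 were the ones lost both with library totals and without siNC 3. The calls of GLE1, XPOT, NUP58, NUP188, IPO4, NUP62, RAN, KPNA4 and KPNA2 held under all 13 alternatives.

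**Figure D1:**
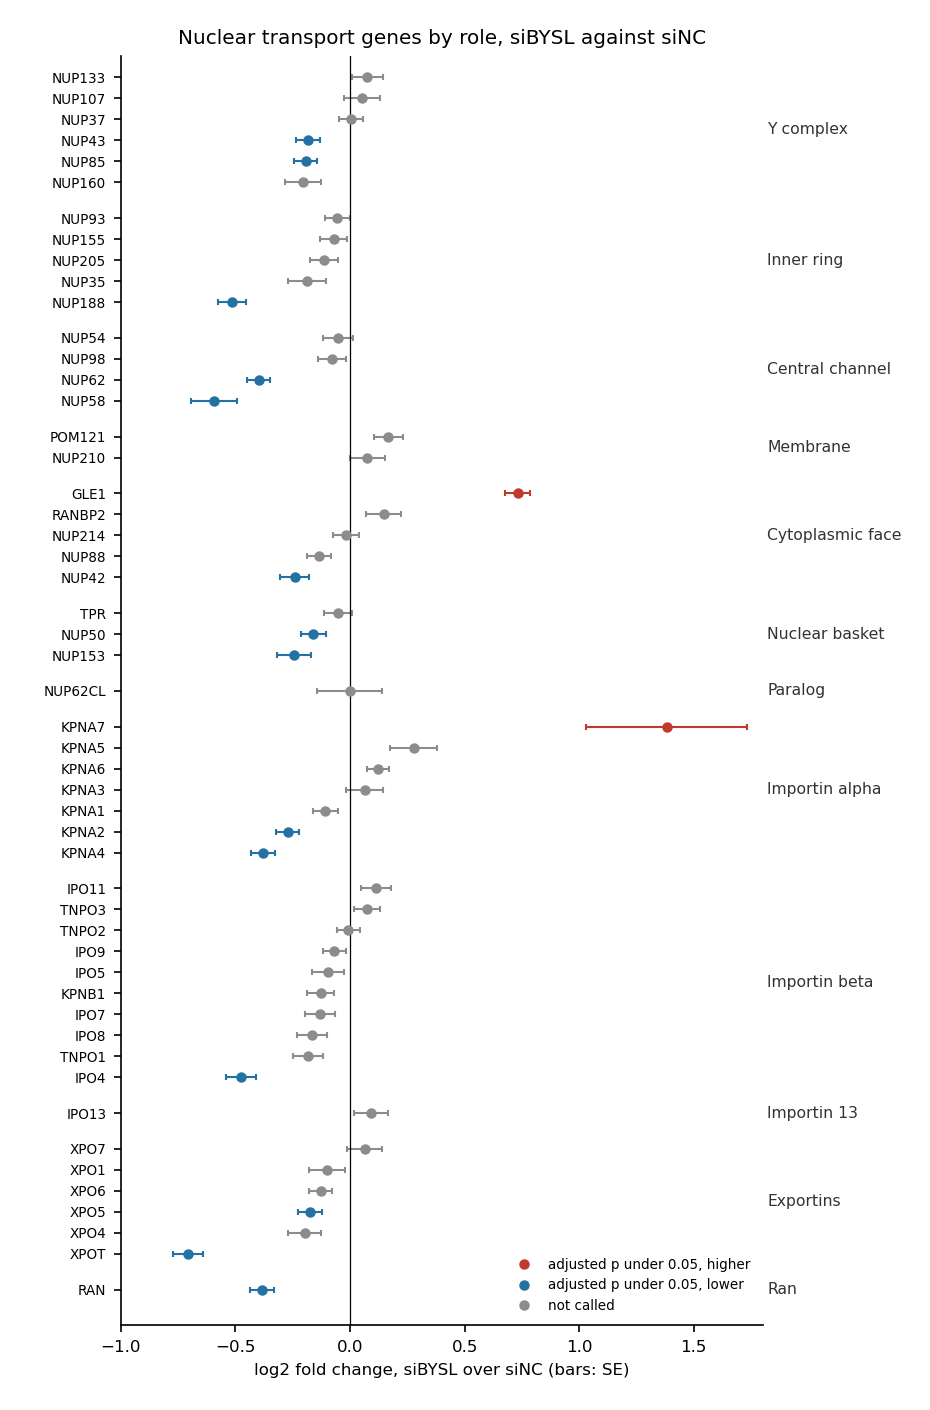
Log2 fold change (siBYSL over siNC, edgeR) of the 51 tested members on the x axis, 1 row per gene, grouped by role, with bars of 1 SE; red and blue mark genes that rose or fell at an adjusted p under 0.05. Falls are spread over most roles, from XPOT at -0.71 to NUP50 at -0.16, and GLE1 at 0.73 lies alone among the well-expressed genes.

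In the Y complex, the outer-ring scaffold, 2 of 6 members fell (33.3%, against 18.4% of all genes) and 0 rose (against 18.5%). NUP85 had 80.2, 82.5 and 79.1 CPM in siBYSL, against 92.2, 90.3 and 94.1 CPM in siNC. NUP43 had 58.9, 61.6 and 57.6 CPM in siBYSL, against 66.9, 67.9 and 67.6 CPM in siNC. The groups did not overlap for either gene, and both falls were small (log2 fold changes -0.19, SE 0.049, and -0.18, SE 0.052; edgeR adjusted p = 0.0102 and 0.0182). NUP133, NUP107 and NUP37 stood at 0.08, 0.05 and 0.00 on the log2 scale and were not called, though NUP107 was called as a rise without siBYSL 3 (0.14, edgeR adjusted p = 0.0245). NUP160 stood at -0.21 with every siBYSL library below every siNC library, but its adjusted p was 0.0633 by edgeR. It was called as a fall with no filter (edgeR adjusted p = 0.00869), without siBYSL 1 (edgeR adjusted p = 0.041) and by the DESeq2 Wald test (adjusted p = 0.0495).

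Of the 5 inner-ring genes only NUP188 fell (20.0%, against 18.4% of all genes). NUP188 (ENSG00000095319.14, chromosome 9, 128947699 to 129007096), a large scaffold protein that binds NUP93, had 72.6, 68.4 and 65.5 CPM in siBYSL, against 93.6, 105.1 and 96.6 CPM in siNC. Every siBYSL library lay well under the lowest siNC library, and the log2 fold change was -0.52 (SE 0.062, edgeR adjusted p = 1.1e-04). Its paralog NUP205 had 124.0, 117.0 and 106.8 CPM in siBYSL, against 122.6, 130.8 and 122.9 CPM in siNC, with groups that overlapped (log2 fold change -0.11, adjusted p = 0.176 by edgeR). NUP93, NUP155 and NUP35 were not called, at -0.06, -0.07 and -0.19. Exons of NUP188 overlap those of AL672142.1, on the same strand, over 3.5% of their bases and those of SH3GLB2, on the other strand, over 0.8%. Exons of NUP62 overlap AC011452.1 (6.4%) and IL4I1 (5.6%) on the same strand and ATF5 (10.4%) on the other. SH3GLB2 fell by 0.30 on the log2 scale and ATF5 was not called (-0.13).

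The phenylalanine-glycine nucleoporins NUP62, NUP58 and NUP54 form the channel complex, and the first pair fell. NUP58 had 55.4, 52.9 and 39.9 CPM in siBYSL, against 72.1, 76.9 and 75.0 CPM in siNC. The groups did not overlap, and siBYSL 3 was far under the other siBYSL libraries. The log2 fold change was -0.60 (SE 0.10, edgeR adjusted p = 0.00103), and without siBYSL 3 it was -0.47. NUP62 had 73.9, 71.1 and 70.7 CPM in siBYSL, against 95.6, 95.7 and 93.1 CPM in siNC, a fall of close size in every siBYSL library (log2 fold change -0.40, SE 0.049, edgeR adjusted p = 1.3e-04). NUP54, at 64.4, 59.9 and 54.9 CPM in siBYSL and 60.8, 61.7 and 63.5 CPM in siNC, was not called (-0.05). NUP98, whose precursor also yields the Y-complex protein NUP96, was not called either (-0.08).

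At the cytoplasmic face, where exported mRNA is released, GLE1 and NUP42 moved in opposite directions. GLE1 (ENSG00000119392.16, chromosome 9, 128504700 to 128542288) activates the RNA helicase DDX19 that strips export factors from mRNA, and NUP42 is a nucleoporin that binds GLE1. GLE1 had 89.0, 90.7 and 85.0 CPM in siBYSL, against 52.3, 55.3 and 51.8 CPM in siNC. The groups were far apart, at a fold of 1.66 (log2 fold change 0.73, SE 0.055, edgeR adjusted p = 5.8e-06). NUP42 had 23.1, 24.5 and 23.0 CPM in siBYSL, against 27.0, 27.5 and 29.0 CPM in siNC, without overlap (log2 fold change -0.24, SE 0.064, edgeR adjusted p = 0.0126). NUP214 and NUP88, which form a subcomplex, and RANBP2, the SUMO ligase of the cytoplasmic filaments, stood at -0.02, -0.14 and 0.15 and were not called. RANBP2 has near-identical RGPD copies whose counts ran from 0 to 41 per library, against 2139 to 3042 for RANBP2 itself. Without siBYSL 3 RANBP2 rose by 0.23 (edgeR adjusted p = 2.7e-04).

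Of the nuclear basket, NUP153 and NUP50, which binds NUP153 and takes part in importin alpha recycling, fell slightly, and TPR did not pass. NUP153 had 94.2, 87.5 and 76.2 CPM in siBYSL, against 99.5, 106.3 and 99.7 CPM in siNC. NUP50 had 79.0, 77.1 and 71.3 CPM in siBYSL, against 85.1, 85.9 and 83.0 CPM in siNC. Neither pair of groups overlapped, but the log2 fold changes of -0.24 (SE 0.074) and -0.16 (SE 0.055) were near the threshold (edgeR adjusted p = 0.0239 and 0.0421). TPR, the long coiled-coil protein of the basket filaments, had 141.9, 138.4 and 122.9 CPM in siBYSL, against 137.1, 142.9 and 137.9 CPM in siNC, with overlap.

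The membrane nucleoporins POM121 and NUP210 were not called, at 0.17 and 0.08. POM121 had 44.9, 45.5 and 42.7 CPM in siBYSL, against 39.4, 41.7 and 37.4 CPM in siNC, without overlap (edgeR adjusted p = 0.0549). POM121 was called as a rise with library totals (0.25), under the stricter filter (0.18) and without siBYSL 3 (0.20), at edgeR adjusted p = 0.0145, 0.0396 and 0.00532. Its near-identical copy POM121C, which lies outside the 52, rose by 0.35 (edgeR adjusted p = 0.00107), and reads of the copies may be shared. NUP62CL, a little-expressed relative of NUP62, stood at 2.38 CPM in both groups.

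Over all 26 tested nucleoporins 8 fell (30.8%, against 18.4% of all genes) and 1 rose (3.85%, against 18.5%). Their median log2 fold change was -0.07 (all genes 0.01). With library totals, which shift all genes upward, it was 0.01 (all genes 0.09). Their summed level was 256.9 ± 13.3 CPM per kilobase in siBYSL and 270.2 ± 4.8 in siNC (SD, n = 3 each), with groups that overlapped (ratio 0.951, exact two-sided permutation test p = 0.2). The count of falls was 3 with library totals (11.5%, against 12.1% of all genes). With single libraries left out it ran from 3, without siNC 3 (11.5%, against 12.5%), to 9 (34.6%). The 9 were reached without siBYSL 1 or without siBYSL 3, where 17.0% and 24.3% of all genes fell.

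**Figure D2:**
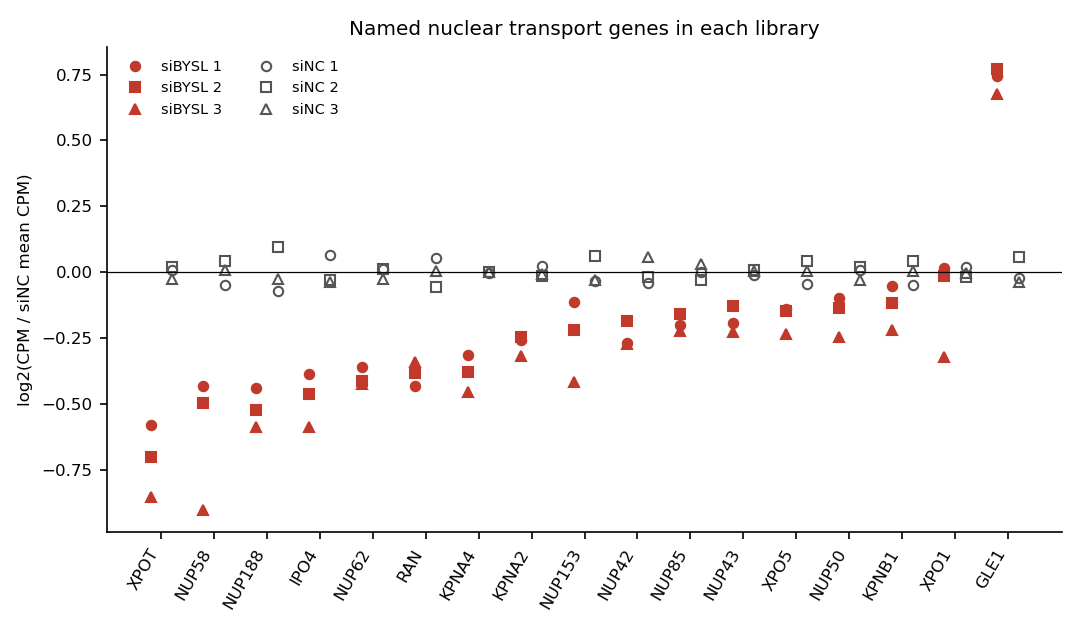
CPM of 17 members named for their role or their test in each library, as log2 of the ratio to the siNC mean on the y axis; filled red symbols are the siBYSL libraries, open grey symbols the siNC libraries, and the symbol shape is the replicate number. The siBYSL 3 triangle lies lowest of the red symbols for NUP58, NUP153 and XPO1, and the siBYSL libraries of GLE1 lie far above its siNC libraries.

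Levels were compared between genes only per length, as CPM per kilobase of annotated exon. By this measure KPNA2 was the most abundant member, with 145.7 ± 3.87 CPM per kilobase in siBYSL and 176.1 ± 2.35 in siNC (SD, n = 3 each). RAN followed with 106.1 ± 3.43 and 138.5 ± 5.34 CPM per kilobase, KPNB1 with 52.8 ± 3.04 and 57.7 ± 1.86, and IPO7 with 31.1 ± 2.79 and 34.0 ± 0.545, in the same group order. These differed beyond their spread in both groups, and the order of the first 4 was the same in both. The order depends on the length used. The exon union is 4825 bases for RAN and 3140 for KPNA2, the longest transcript 2661 and 2456 bases. With the longest transcript as length RAN would stand above KPNA2, and XPOT would stand lower than 6th in siNC. From IPO5, at 20.1 ± 0.614 CPM per kilobase in siNC, XPOT (19.7 ± 0.33), NUP88 (19.5 ± 0.375) and TNPO3 (19.0 ± 0.683) did not differ from their neighbours beyond the spread. XPOT, 6th of the 52 in siNC by exon union, stood at 12.1 ± 1.14 CPM per kilobase in siBYSL.

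Of 7 importin alpha genes, the cargo adaptors of KPNB1, 2 fell (28.6%, against 18.4% of all genes). The low-count KPNA7 was the 1 that rose (14.3%, against 18.5%). KPNA2 had 462.5, 466.3 and 443.7 CPM in siBYSL, against 561.1, 546.9 and 550.5 CPM in siNC. KPNA4 had 88.1, 84.4 and 79.9 CPM in siBYSL, against 109.5, 109.6 and 109.8 CPM in siNC. Neither overlapped, with log2 fold changes of -0.27 (SE 0.050, edgeR adjusted p = 0.00158) and -0.38 (SE 0.052, edgeR adjusted p = 2.6e-04). KPNA6, KPNA3, KPNA5 and KPNA1 were not called, at 0.12, 0.07, 0.28 and -0.11. KPNA3 was called as a rise without siBYSL 3 (0.16, edgeR adjusted p = 0.00991). KPNA6 and KPNA5 lay above siNC in every siBYSL library, and both rose with library totals (edgeR adjusted p = 0.0112 and 0.0184).

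KPNA7, an importin alpha of early embryos, had 21, 26 and 28 counts in siBYSL, against 12, 4 and 11 in siNC. It passed the filter on low counts through its siBYSL libraries, so its rise (log2 fold change 1.38, SE 0.35, edgeR adjusted p = 0.0103) was measured on counts near the limit, and it was not tested under the stricter filter.

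The summed importin alpha level was 196.8, 195.6 and 186.0 CPM per kilobase in siBYSL, against 226.7, 222.8 and 223.6 in siNC. The groups did not overlap (ratio 0.859, exact two-sided permutation test p = 0.1, the smallest that 3 against 3 libraries can give). KPNA2 made up 74.9%, 75.9% and 76.0% of that sum in siBYSL, against 78.8%, 78.2% and 78.4% in siNC (exact permutation p = 0.1). The share of KPNA6 was 8.17% ± 0.356 in siBYSL and 6.44% ± 0.16 in siNC, and that of KPNA4 4.63% ± 0.105 and 5.19% ± 0.0505, in the same order (SD, n = 3 each).

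**Figure D3:**
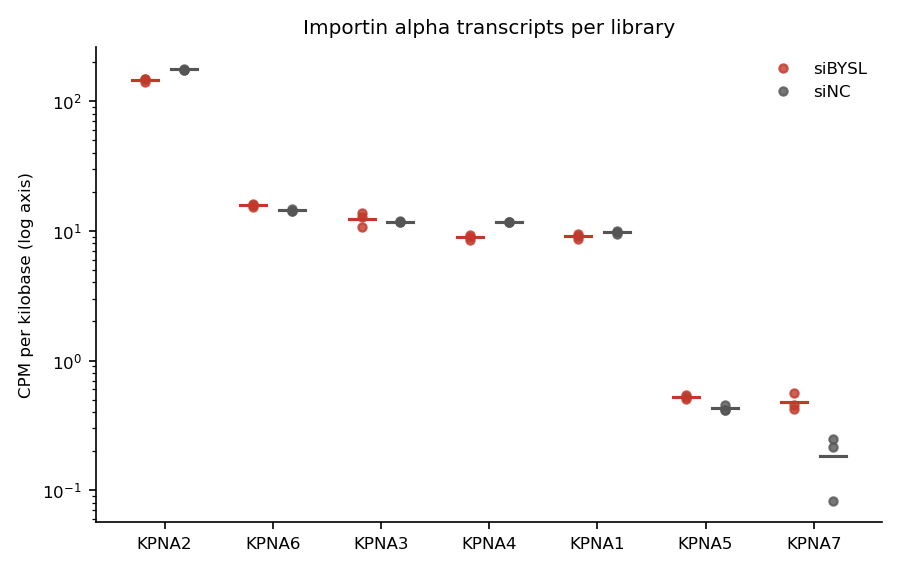
Level of each importin alpha transcript in CPM per kilobase of annotated exon (log y axis), with siBYSL libraries in red at the left and siNC libraries in grey at the right of each gene; points are libraries and lines are means of 3. KPNA2 stands about an order of magnitude above the next gene in both groups, and KPNA7 lies under 1 CPM per kilobase.

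The importin beta family held 1 fall (9.09%, against 18.4% of all genes) and 0 rises (against 18.5%) among 11 tested members. The falls numbered 5 without siBYSL 1 (45.5%, against 17.0% of all genes) and 2 without siBYSL 3 (18.2%, against 24.3%). With no filter on low counts they numbered 3 (27.3%, against 11.8%). The summed level of the family was 182.5 ± 11.0 CPM per kilobase in siBYSL and 195.3 ± 3.1 in siNC (SD, n = 3 each; ratio 0.935, exact permutation p = 0.1, and 0.9 with library totals). IPO4, an import receptor of histones, had 33.1, 31.4 and 28.8 CPM in siBYSL, against 45.3, 42.4 and 42.2 CPM in siNC. The groups were separate, with a log2 fold change of -0.48 (SE 0.068, edgeR adjusted p = 3.3e-04). A second annotated gene on the same strand covers 69.3% of the exon bases of IPO4, so its counts depend on how the authors assigned shared reads.

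KPNB1, importin beta itself, had 426.6, 408.1 and 380.2 CPM in siBYSL, against 427.8, 456.3 and 444.4 CPM in siNC. The highest siBYSL library was just under the lowest siNC library, and the change was not called (log2 fold change -0.13, SE 0.058, edgeR adjusted p = 0.103). Without siBYSL 1 it passed, at -0.17 (adjusted p = 0.0481). IPO5 and IPO7, both able to import ribosomal proteins, stood at -0.10 and -0.13, and IPO8 and IPO9 at -0.17 and -0.07. TNPO1, which imports hnRNP proteins, had 148.1, 141.4 and 122.9 CPM in siBYSL, against 157.7, 154.1 and 156.5 CPM in siNC. It was just over the threshold (log2 fold change -0.18, edgeR adjusted p = 0.0507) and passed under 6 of 13 alternatives. Its paralog TNPO2 and TNPO3, the receptor of SR splicing factors, stood at -0.01 and 0.07, and IPO11 and the bidirectional carrier IPO13 at 0.11 and 0.09. IPO11 rose without siBYSL 3 (0.16, edgeR adjusted p = 0.015).

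Among exportins the carrier of tRNA fell most. XPOT (ENSG00000184575.12, chromosome 12, 64404350 to 64451127), which takes mature tRNA out of the nucleus, had 97.0, 89.2 and 80.2 CPM in siBYSL, against 145.7, 147.1 and 142.3 CPM in siNC. The siBYSL libraries lay far under siNC, at a fold of 0.612 (log2 fold change -0.71, SE 0.067, edgeR adjusted p = 2.5e-05), the largest fall among the 51. XPO5, the exportin of microRNA precursors, had 102.0, 101.5 and 95.4 CPM in siBYSL, against 108.9, 115.6 and 112.6 CPM in siNC. Its log2 fold change of -0.17 (SE 0.052, edgeR adjusted p = 0.0226) was lost with the replicate block (adjusted p = 0.0531), and its exons overlap those of POLR1C on the other strand over 4.1% of their bases. POLR1C itself fell by 0.48 on the log2 scale.

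XPO1, the general exportin of leucine-rich export signals, had 202.4, 198.4 and 160.1 CPM in siBYSL, against 203.2, 198.0 and 200.0 CPM in siNC. Only siBYSL 3 was low, and the groups overlapped (log2 fold change -0.10, SE 0.079, edgeR adjusted p = 0.353). Without that library the log2 fold change was 0.00. XPO4, XPO6 and XPO7 were not called, at -0.20, -0.13 and 0.06. For XPO4 and XPO6 every siBYSL library lay below siNC, with edgeR adjusted p = 0.0544 and 0.0594. XPO7 was called as a rise without siBYSL 3 (0.15, edgeR adjusted p = 0.0172). The summed level of the 6 exportins was 68.9, 66.1 and 59.4 CPM per kilobase in siBYSL, against 76.4, 77.0 and 75.4 in siNC. The groups did not overlap (ratio 0.850, exact two-sided permutation test p = 0.1, again the smallest possible), and XPOT alone stood at 12.1 CPM per kilobase in siBYSL and 19.7 in siNC.

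RAN, the GTPase on which the karyopherins depend, fell. RAN (ENSG00000132341.12, chromosome 12, 130871879 to 130877678) had 495.2, 512.9 and 528.2 CPM in siBYSL, against 693.3, 641.9 and 670.1 CPM in siNC. Every siBYSL library was far under siNC, and unlike most members RAN was highest in siBYSL 3. The fold was 0.766 (log2 fold change -0.38, SE 0.054, edgeR adjusted p = 3.1e-04).

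**Figure D4:**
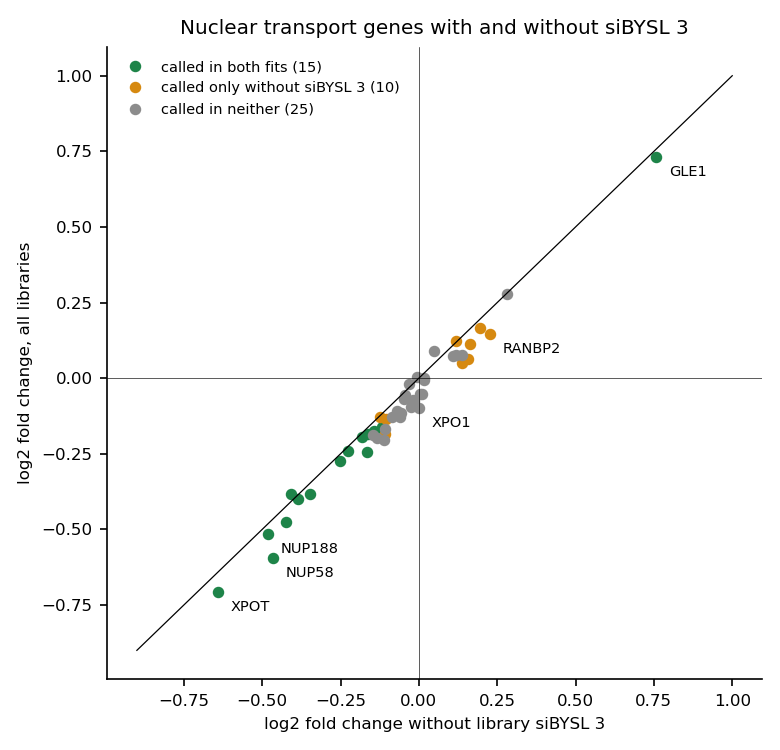
Log2 fold change of 50 members (all tested but KPNA7) with all libraries (y axis) and without siBYSL 3 (x axis), with the line of equal values; 15 were called in both fits, 10 only without siBYSL 3 and 25 in neither. Most points lie slightly under the line, NUP58 and XPO1 visibly so, and the called falls and GLE1 keep their direction.

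Other genes of nuclear transport were taken from lists by function. Of 75 tested, 31 fell (41.3%, against 18.4% of all genes) and 15 rose (20.0%, against 18.5%). Their median log2 fold change was -0.13 (all genes 0.01). The rises numbered 6 (8.0%, against 13.5% of all genes) without siNC 1, 8 (10.7%, against 13.5%) without siBYSL 2 and 7 (9.33%, against 12.6%) without siNC 3. The Ran cycle list had 4 falls (66.7%, against 18.4% of all genes) and 1 rise (16.7%, against 18.5%) among 6. RANGAP1, which activates GTP hydrolysis by Ran, fell by 0.32 (edgeR adjusted p = 3.8e-04), RCC1, the nucleotide exchange factor of Ran, by 0.27 and RANBP1 by 0.23. RANBP3, an XPO1 cofactor, rose by 0.18 (edgeR adjusted p = 0.0155), and NUTF2, the importer of Ran, was not called (-0.14). Among 5 further karyopherin and adaptor genes, 2 rose (40.0%, against 18.5% of all genes) and 0 fell (against 18.4%). CSE1L, the exportin that returns importin alpha to the cytoplasm, rose to 383.6 ± 16.2 CPM in siBYSL, against 258.2 ± 5.8 CPM in siNC (SD, n = 3 each; log2 fold change 0.57, SE 0.053, edgeR adjusted p = 2.1e-05).

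Of 7 other nucleoporin genes 2 fell (28.6%, against 18.4% of all genes) and 1 rose (14.3%, against 18.5%). The membrane nucleoporin NDC1 fell by 0.41 and RAE1, a partner of NUP98, by 0.33, beside the rise of POM121C. Of 28 mRNA export genes 13 fell (46.4%, against 18.4% of all genes) and 5 rose (17.9%, near the 18.5% of all genes). POLDIP3 fell by 0.74 on the log2 scale, to 43.0 ± 0.635 CPM in siBYSL, against 71.9 ± 0.355 CPM in siNC, ENY2 by 0.33 and NCBP1 by 0.34. Of 4 adaptors of pre-ribosome export, 1 fell and 1 rose (25.0% each, against 18.4% and 18.5% of all genes). RRP12 fell by 0.43 and NMD3, which bridges the large subunit to XPO1, rose by 0.21 (edgeR adjusted p = 0.0271).

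Of 17 genes of the nuclear lamina and envelope 7 fell (41.2%, against 18.4% of all genes) and 3 rose (17.6%, against 18.5%). EMD stood at -0.34, TOR1AIP2 at -0.29 and TMPO at -0.30. Of 8 SUMO pathway genes, several of whose products act at the pore, 4 fell and 2 rose. SUMO3 fell to 128.6 ± 1.69 CPM in siBYSL, against 234.0 ± 5.39 CPM in siNC (log2 fold change -0.86, edgeR adjusted p = 9.6e-07), and the protease gene SENP2 fell by 0.46. Among the genes named from these lists, NDC1, POLDIP3, TMPO and SUMO3 each held 1 guide-seed heptamer in their 3′ UTR.

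Guide-seed heptamers were more frequent in the longest annotated 3′ UTR of the members than among all genes: 14 of 51 (27.5%) held at least 1, against 1550 of 13072 genes (11.9%). The median length of that 3′ UTR was 1538 bases over the 51 members and 1356 bases over all genes. Within the members it was 4191 bases in the 14 and 1183 bases in the other 37. Of the 14, 4 fell (28.6%) and 0 rose. Of the 37 without the heptamer, 10 fell (27.0%) and 2 rose (5.41%). Over all genes 33.7% fell and 15.2% rose with the heptamer, against 19.2% and 20.5% without. The heptamer that pairs with the passenger seed, GTCATCT, was found in 9 members (17.6%), against 12.1% of all genes. Of the 9, 2 fell (22.2%), against 24.6% of all genes with it.

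The members that fell with a guide-seed heptamer were XPOT, KPNA4, RAN and NUP62, and the first 3 are among the 4 members in which an A follows it. Over all genes 39.8% of 412 with that longer match fell. In XPOT, whose fall was the largest, the site begins 341 bases after the stop codon. RAN carries its site in the 3′ UTR of only 2 of 6 annotated coding transcripts, and NUP62 in 1 of 5, while XPOT and KPNA4 each have 1 such transcript. NUP93 held 3 heptamers in the longest of its 8 annotated 3′ UTRs and in none of the others, and it was not called. KPNB1 held the heptamer in all 4 of its 3′ UTRs, 89 bases after the stop codon in the longest, and was not called. The falls of NUP188, NUP58, IPO4 and KPNA2 came without a heptamer. No transcript of a member matched more than 11 consecutive bases of the 19 that the duplex targets. The part of the duplex in these falls was not tested.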

How the data were processed

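Poly(A) RNA-seq libraries of 3 siBYSL and 3 siNC cultures were strand-specific and read as 150 nt pairs, per the labels. One table of whole-number gene counts, deposited without normalization, was used. The submitters' processing notes name HISAT2, DESeq2 and GRCh38 p13, with no step attached; how reads were counted, with which annotation and strand setting, is not given in the sources used here. Counts were filtered with filterByExpr (16412 of 29538 genes kept), scaled with TMM factors and compared by the edgeR 4.0.16 quasi-likelihood F test (robust, group only, R 4.3.3), with p-values adjusted by Benjamini-Hochberg across every gene that was tested, and calls at 0.05. Each SE was taken as |log2 fold change| / √F. The common biological coefficient of variation was 0.0649. Errors widen at low counts. Sums and shares per kilobase of exon union (GENCODE 29) were compared by exact permutation tests over libraries (SciPy 1.17.1). Seeds came from the labels, 3′ UTRs from GENCODE 29, which may differ from the authors' annotation; the seed matches of both strands of the duplex were searched.

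The members and lists were chosen with earlier results of these data known. Per-library values are given for KPNA2, KPNB1, XPO1, RAN and GLE1, for called members with an absolute log2 fold change of 0.5 or more and for the 2 called members of smallest p in each role; other members named with values, and RANBP3 and NUTF2, were chosen after their values were seen. Of each list of other transport genes up to 3 called genes of smallest p are named; 1 such gene is not reported here. Alternatives were DESeq2 size factors, library totals, no filter, a stricter filter (1 CPM in 3 libraries), the DESeq2 1.42.0 Wald test, limma-voom (limma 3.58.1), a replicate block, each library left out and, for sums, the longest transcript as length. The test was tried on simulated counts.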

Additional observations from a re-analysis of the deposited data

How the results depend on the processing

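With library totals, 1989 genes fell (12.1%) in place of 3027 and 4106 rose (25.0%) in place of 3032. The median of all genes moved to 0.085 in place of 0.007. Beside these shares of all genes, 8 members fell (15.7%) and 5 rose (9.8%). Of the nucleoporins 3 fell (11.5%) and 2 rose (7.69%), 3 importin alpha genes rose (42.9%) and 1 exportin fell (16.7%). The log2 ratio of the summed nucleoporin level per kilobase was 0.00574 in place of -0.0729. Under the stricter filter 4 members (8.0%), 2 nucleoporins (7.69%) and 2 importin alpha genes (33.3%) rose, against 21.1% of all genes. The importin beta genes that fell numbered 2 (18.2%) with DESeq2 size factors, the DESeq2 Wald test or limma-voom (18.8%, 9.75% and 18.7% of all genes). With no filter they numbered 3 (27.3%, against 11.8%). The exportins that fell numbered 4 (66.7%, against 18.8% of all genes) with DESeq2 size factors. Replicate numbers did not pair the libraries (correlations of deviations -0.129, 0.06 and 0.011 for numbers 1 to 3). With the replicate block 12 members fell (23.5%, against 16.8% of all genes) and 2 rose (3.92%, against 17.1%). In that fit 1 exportin fell (16.7%, against 16.8% of all genes), with XPO5 and NUP50 lost.

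With single libraries left out, 8 to 20 members fell and 2 to 9 rose, 3 to 9 nucleoporins fell and 1 to 4 rose, 1 to 3 importin alpha genes rose, 1 to 5 importin beta genes fell and 0 to 1 rose, 1 to 3 exportins fell and 0 to 1 rose, and 6 to 18 other transport genes rose. In the same fits 12.5% to 24.3% of all genes fell and 12.6% to 23.5% rose, so the calls over all genes moved too. XPO1 was at 0.00 without siBYSL 3 and -0.16 to -0.09 without another library. Of 233 values of the 18 named members under alternatives, 207 kept their direction and side of the threshold, 24 lost their call, 1 gained one and 1 changed sign. The causes were not tested. Counts near 10 per library, as for KPNA7, limit what depth can show.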
